A study of Mus musculus with 12 samples.

Results

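The 10 autophagy machinery genes described here are Sqstm1, Map1lc3a, Map1lc3b, Gabarap, Gabarapl1, Becn1, Ulk1, Atg5, Atg7 and Wipi1. They were chosen by name for their known roles in autophagy, with earlier results of these data known. They were found by symbol in the deposited count table, which holds 16482 usable genes. All 10 were in the table, and all 10 had enough counts to be among the 12623 genes tested. The samples were whole brains of C57BL/6 mice in 3 groups of 4. In the first, mice had received conduritol B epoxide (CBE) together with GZ-667161 and were at postnatal day 40. In the second, mice had received CBE, with replicates 4 and 6 at day 40 and replicates 2 and 3 at day 34. In the third, mice at day 40 had received PBS, the vehicle. Injected CBE makes the lipid glucosylceramide build up in mice and serves as a model of neuronopathic Gaucher disease. GZ-667161 crosses into the brain and inhibits glucosylceramide synthase, which makes that lipid, an approach called substrate reduction. The disease state in this model is induced by a compound and not inherited, and the labels give no doses and do not say whether each sample came from its own mouse. The p-values therefore rest on sample-to-sample spread that could be partly technical.

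Autophagy encloses parts of the cytoplasm in a double membrane, the autophagosome, and delivers them to lysosomes for breakdown. The ULK1 kinase complex starts the process, the class III PI3-kinase complex around Beclin 1 marks the growing membrane with the lipid PI3P, WIPI proteins bind that lipid, and ATG5 and ATG7 help to attach the LC3 and GABARAP proteins to the membrane, where receptors such as p62 link cargo to them. Neurons depend on autophagy, and in lysosomal storage disorders autophagosomes and p62 protein can build up when lysosomes fail. The values below are transcript levels, which do not measure how much material passes through autophagosomes.

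Transcripts were counted from tags at their 3' ends by bulk MARS-seq, with 1753626 to 6499257 counts per sample. Both day 34 CBE samples were sequenced least deeply. Levels are given as CPM, counts scaled to a common library size after TMM scaling. Differences are log2 fold changes with their standard errors from edgeR's quasi-likelihood test, and a gene was called at an adjusted p under 0.05 over all genes tested. Samples of 1 group differed by more than counting alone allows (chi-square over its degrees of freedom, 3.52 to 13.7). Whole-brain RNA pools all cell types, so fewer cells of a type and less RNA per cell cannot be told apart. The summed level of 8 microglial markers was 1505 to 2638 CPM in the CBE+GZ-667161 samples, 2387 to 3721 CPM in the CBE samples and 743 to 827 CPM in the PBS samples. The summed level of 8 neuronal markers was 4313 to 5332 CPM in the CBE+GZ-667161 samples, 3647.5 to 4844.5 CPM in the CBE samples and 5241 to 5351 CPM in the PBS samples. No marker of either list was at 0 in every sample. Xist, which is transcribed in female cells, was above 5 CPM in 3 CBE+GZ-667161 samples, 0 CBE samples and 2 PBS samples, so the sexes were not balanced.

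Of the 10 autophagy machinery genes, 9 passed the test in none of the 3 comparisons between treatments. Between CBE and PBS, 1 of the 10 genes passed the test, Map1lc3a, which was lower in CBE, beside 11.0% of all genes tested (4.04% lower and 6.95% higher), so the count of calls was near that of all genes. For the other 9 genes the 95% interval of the difference between CBE and PBS lay within 1.5-fold in either direction, as it did for 34.4% of all genes tested. Between CBE+GZ-667161 and PBS 0 of the 10 were called by edgeR, beside 3.45% of all genes, with 1 at an unadjusted p under 0.05 (13.1% of all genes) and 0 called by DESeq2. Between CBE+GZ-667161 and CBE 0 of the 10 were called by edgeR, beside 1.28% of all genes, again with 1 at an unadjusted p under 0.05 (16.5% of all genes) and 0 called by DESeq2. With the inhibitor added, the interval lay within 1.5-fold for 9 of the 10 genes relative to PBS (45% of all genes) and for all 10 relative to CBE (38.3% of all genes). Intervals are wider for genes of low level, and these shares were not matched for level. The median size of the difference, on the log2 scale and without its sign, was 0.11 over the 10 genes in CBE against PBS and 0.25 over all genes tested. For CBE+GZ-667161 it was 0.10 and 0.17 relative to PBS, and 0.13 and 0.21 relative to CBE. These medians were not matched for level either, and genes of low level vary more by counting alone. The 3 comparisons between treatments share samples, so they are not independent of each other.

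**Figure D1:**
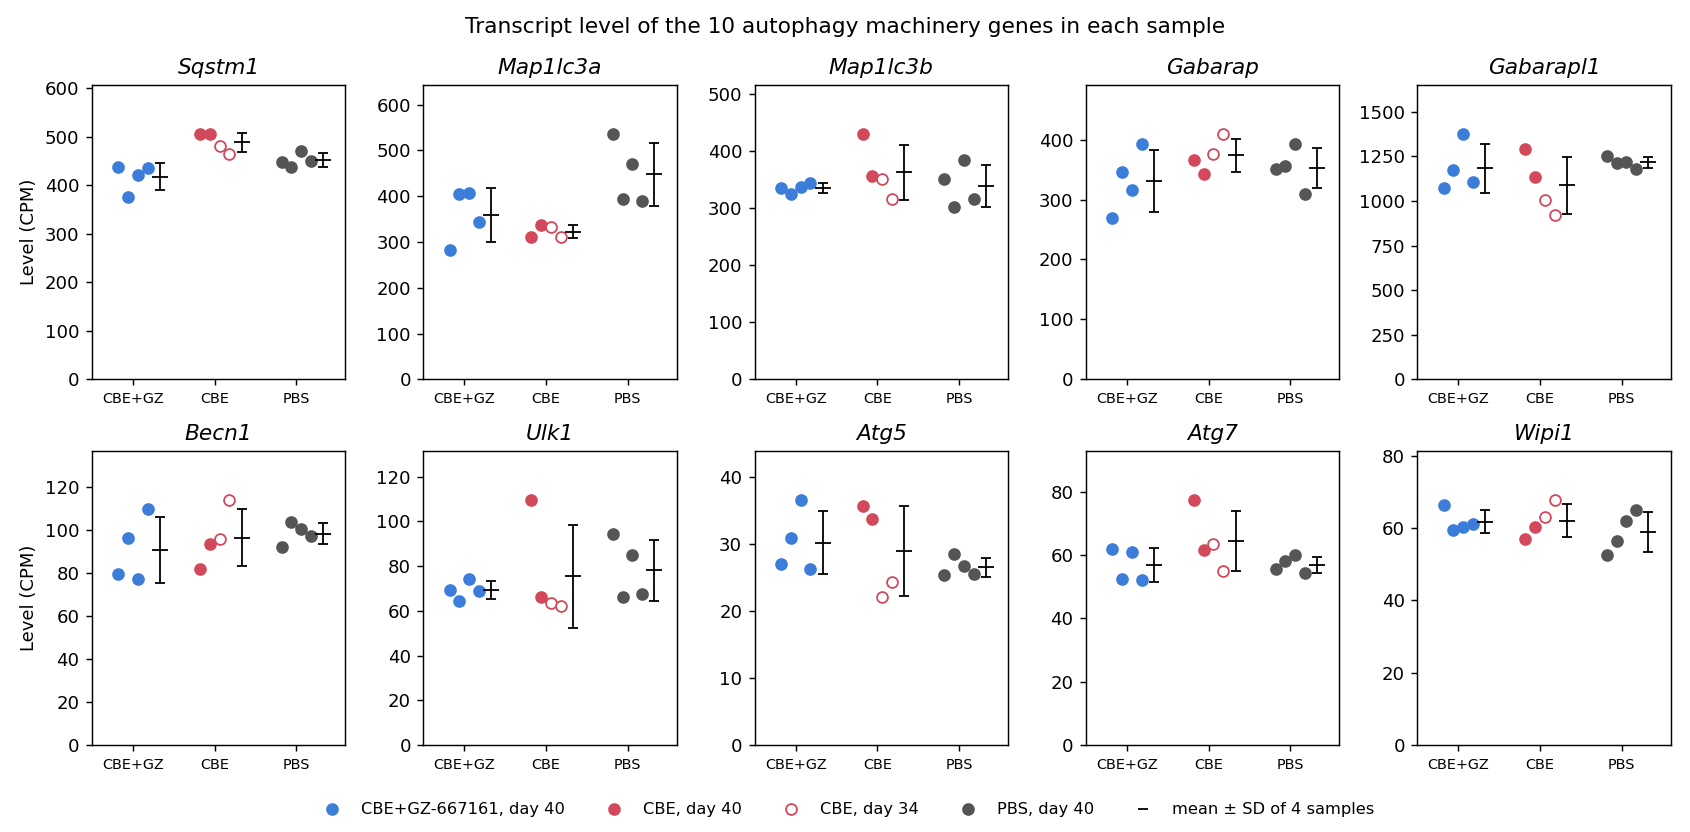
Level in CPM (y axis, from 0) of each of the 10 genes in every sample, for CBE+GZ-667161, CBE and PBS from left to right, with the mean ± SD of the 4 samples beside the points. Filled points are day 40 samples and open points are the 2 day 34 CBE samples. Map1lc3a is the panel in which all 4 CBE samples lie under all 4 PBS samples, and Ulk1 has 1 CBE sample, replicate 4 at 109.6 CPM, far above the other CBE samples.

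Map1lc3a encodes LC3A, a protein of the ATG8 family that is attached to the autophagosome membrane (mm10 chromosome 2, 155276297 to 155278073, plus strand). Its level was 283, 405, 407 and 343 CPM in the CBE+GZ-667161 samples. It was 311 and 338 CPM in the day 40 CBE samples and 332 and 310.5 CPM in the day 34 CBE samples, against 536, 394, 470.4 and 389 CPM in the PBS samples. All 4 CBE samples lay under the lowest PBS sample, as CBE and PBS did not overlap for 15.6% of all genes, while the CBE+GZ-667161 samples spread across the gap and overlapped both groups. The mean was 359.8 ± 59.1 CPM in CBE+GZ-667161, 323 ± 14.3 CPM in CBE and 447 ± 69.7 CPM in PBS (SD, n = 4 each). Map1lc3a fell by 27.8% in CBE relative to PBS, a log2 fold change of -0.47 ± 0.13 (95% interval -0.75 to -0.19, edgeR adjusted p = 0.029). With the inhibitor added, the difference was -0.31 ± 0.13 relative to PBS (-0.59 to -0.04, edgeR adjusted p = 0.29) and 0.16 ± 0.13 relative to CBE (-0.12 to 0.44, edgeR adjusted p = 0.60). The order of the means was thus PBS, CBE+GZ-667161, CBE from high to low, and neither neighbouring pair differed past the threshold.

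The call of Map1lc3a was lost in 6 of the 8 fits that left out 1 CBE or PBS sample. It was lost without PBS replicate 2 (-0.35, edgeR adjusted p = 0.14), which had the highest level, and without PBS replicate 4 (-0.45, adjusted p = 0.081). It was also lost without CBE replicate 2, 3, 4 or 6, at an adjusted p of 0.052, 0.060, 0.082 and 0.059, and it was kept without PBS replicate 3 or 5. The 2 day 40 CBE samples alone, of the same age as the PBS samples, gave -0.47 ± 0.17 (adjusted p = 0.093), and the 2 day 34 CBE samples alone gave -0.46 ± 0.17 (adjusted p = 0.17), so the size was alike at both ages. The value was -0.58 ± 0.14 with Xist as a covariate (adjusted p = 0.014) and -0.46 ± 0.14 in DESeq2 (adjusted p = 0.012). In the authors' deposited table, whose fold changes run PBS over CBE, Map1lc3a had a log2 fold change of 0.47 and an adjusted p of 0.01, and it was the 1 of the 10 genes under 0.05 there. Of the 8 neuronal markers 5 were called lower in CBE than in PBS, with a median of -0.56 over the list, and 0 were called lower in CBE+GZ-667161 than in PBS (median -0.26). Their part in the fall of Map1lc3a was not tested.

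**Figure D2:**
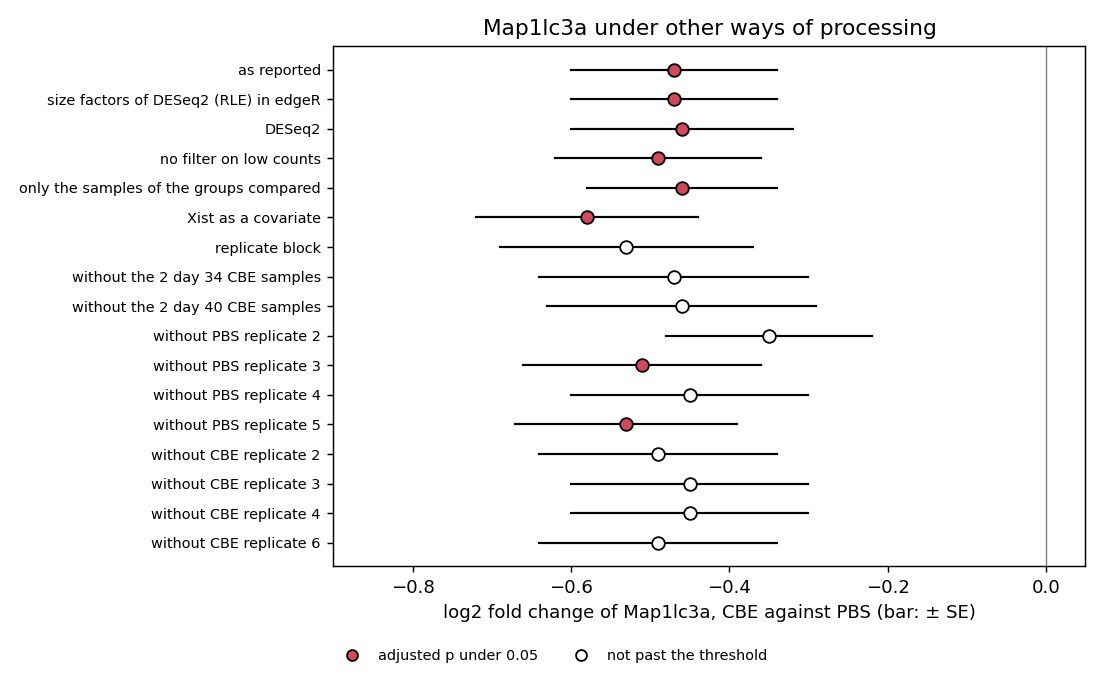
Log2 fold change of Map1lc3a in CBE against PBS (x axis, with bars of ± 1 SE) as reported and under each other way of processing. Every value lies under 0, between -0.58 and -0.35, and the points are filled where the adjusted p was under 0.05. The call was kept under 5 of 8 other settings and lost in 6 of 8 fits that left out 1 sample.

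The 3 genes whose pattern over the 12 samples was most like that of Map1lc3a, by the root mean square difference of centred log2 CPM, were Begain at 0.097, Slc17a7 at 0.114 and Atxn7l3 at 0.115. They were picked on these same samples, so fold changes near that of Map1lc3a follow from the choice and add no support. Their log2 fold changes in CBE against PBS were -0.35, -0.45 and -0.40 (edgeR adjusted p = 0.05, 0.026 and 0.075). The values for CBE+GZ-667161 against PBS were -0.25, -0.41 and -0.12 (edgeR adjusted p = 0.32, 0.1 and 0.81).

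None of the other 3 ATG8 family genes among the 10 passed the test in CBE against PBS. Map1lc3b, which encodes LC3B, the form most used to follow autophagosomes (chromosome 8, 121590361 to 121598760, plus strand), lay at 336, 325, 336 and 344 CPM in the CBE+GZ-667161 samples. It lay at 429.6 and 356 CPM in the day 40 CBE samples and 351 and 315 CPM in the day 34 CBE samples, against 351, 302, 384 and 316 CPM in the PBS samples. CBE replicate 4 was the highest of all 12 samples, the CBE+GZ-667161 samples were tightly grouped, and the 3 groups overlapped. The log2 fold change was 0.10 ± 0.11 in CBE against PBS (-0.13 to 0.34, edgeR adjusted p = 0.61) and -0.01 ± 0.11 in CBE+GZ-667161 against PBS (-0.25 to 0.22, adjusted p = 0.99). The 3' end of Map1lc3b is covered by Gm20388 on the same strand and Zcchc14 on the opposite one, and the sources used here do not say how the counting treated such overlaps.

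Gabarap, the founding gene of the GABARAP branch, whose products act at later steps of autophagosome closure and fusion (chromosome 11, 69991143 to 69994951, plus strand), had 269, 346, 316 and 392 CPM in the CBE+GZ-667161 samples. It had 366 and 343 CPM in the day 40 CBE samples and 377 and 409 CPM in the day 34 CBE samples, against 350.3, 356, 392 and 310.0 CPM in the PBS samples. The groups overlapped, and the lowest value of all was CBE+GZ-667161 replicate 2. The difference was 0.09 ± 0.12 in CBE against PBS (-0.17 to 0.34, edgeR adjusted p = 0.71), -0.09 ± 0.12 in CBE+GZ-667161 against PBS (adjusted p = 0.85) and -0.18 ± 0.12 in CBE+GZ-667161 against CBE (adjusted p = 0.50). Gabarapl1, a close relative that is strongly expressed in brain (chromosome 6, 129533160 to 129542346, plus strand), had 1071, 1173, 1376 and 1109 CPM in the CBE+GZ-667161 samples. In the day 40 CBE samples it had 1292 and 1134 CPM and in the day 34 CBE samples 1005 and 919.8 CPM, against 1252, 1216, 1221 and 1180.3 CPM in the PBS samples. The PBS samples were close together, and 3 of the 4 CBE samples lay under all of them while CBE replicate 4 lay above. The difference was -0.16 ± 0.11 in CBE against PBS (-0.40 to 0.08, edgeR adjusted p = 0.41) and -0.04 ± 0.11 in CBE+GZ-667161 against PBS (-0.28 to 0.20, adjusted p = 0.94). Restricting CBE to day 40 gave -0.01 against PBS (adjusted p = 0.96), and restricting it to day 34 gave -0.32 (adjusted p = 0.17).

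Sqstm1 encodes p62, the receptor that links ubiquitinated cargo to LC3 and is itself broken down by autophagy (chromosome 11, 50199366 to 50210827, minus strand). Its level was 436, 376, 421 and 435 CPM in the CBE+GZ-667161 samples. It was 505 and 504 CPM in the day 40 CBE samples and 479.6 and 464 CPM in the day 34 CBE samples, against 448, 437, 471 and 451 CPM in the PBS samples. The CBE+GZ-667161 and CBE samples did not overlap, as for 8.09% of all genes. CBE+GZ-667161 and PBS were separated by less than 1 CPM, a separation seen in 9.78% of all genes, and CBE and PBS overlapped. The mean was 417 ± 28.4 CPM in CBE+GZ-667161, 488 ± 19.9 CPM in CBE and 452 ± 14.5 CPM in PBS (SD, n = 4 each). The log2 fold change was -0.23 ± 0.09 in CBE+GZ-667161 against CBE (-0.42 to -0.04), which did not pass the threshold in edgeR (adjusted p = 0.22, between 0.16 and 0.53 in the other edgeR fits) or in DESeq2 (adjusted p = 0.059). In CBE against PBS it was 0.11 ± 0.09 (-0.08 to 0.30, edgeR adjusted p = 0.47), and in CBE+GZ-667161 against PBS it was -0.11 ± 0.09 (-0.30 to 0.08, adjusted p = 0.69). The means were ordered CBE, PBS, CBE+GZ-667161 from high to low, and no pair passed the threshold. Mrnip, on the opposite strand, covers the 3' end of Sqstm1, and without stated strand use reads of the pair cannot be told apart.

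Ulk1, the gene of the kinase that starts autophagosome formation (chromosome 5, 110784488 to 110810097, minus strand), had 69.5, 64.3, 74.1 and 69.0 CPM in the CBE+GZ-667161 samples. It had 109.6 and 66.2 CPM in the day 40 CBE samples and 63.6 and 62.2 CPM in the day 34 CBE samples, against 94.2, 66.2, 85.0 and 67.7 CPM in the PBS samples. CBE replicate 4 was the highest of the 12 samples, and the other 3 CBE samples lay at or near the low end of the PBS range. The log2 fold change was -0.04 ± 0.18 in CBE against PBS (-0.41 to 0.33, edgeR adjusted p = 0.92). Without CBE replicate 4 it was -0.28 (adjusted p = 0.29). Relative to PBS, CBE+GZ-667161 had -0.17 ± 0.17 (-0.54 to 0.20, adjusted p = 0.79).

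Becn1 encodes Beclin 1, a subunit of the class III PI3-kinase complex (chromosome 11, 101285952 to 101302286, minus strand). Its level was 79.5, 96.4, 77.2 and 109.6 CPM in the CBE+GZ-667161 samples. It was 81.9 and 93.4 CPM in the day 40 CBE samples and 95.9 and 114 CPM in the day 34 CBE samples, against 92.1, 103, 101 and 97.1 CPM in the PBS samples. The PBS samples lay inside the range of both other groups. The difference was -0.03 ± 0.13 in CBE against PBS (-0.32 to 0.25, edgeR adjusted p = 0.91) and -0.12 ± 0.13 in CBE+GZ-667161 against PBS (-0.40 to 0.16, adjusted p = 0.81). Cntd1 on the opposite strand covers its 3' end. Wipi1, whose product binds PI3P on the forming membrane (chromosome 11, 109573331 to 109611967, minus strand), had 66.3, 59.3, 60.3 and 61.0 CPM in the CBE+GZ-667161 samples. It had 57.1 and 60.3 CPM in the day 40 CBE samples and 63.1 and 67.8 CPM in the day 34 CBE samples, against 52.7, 56.4, 62.0 and 64.9 CPM in the PBS samples. It had the narrowest range of the 10 genes, with a highest sample 1.29 times the lowest and overlapping groups. The difference was 0.07 ± 0.12 in CBE against PBS (-0.18 to 0.32, edgeR adjusted p = 0.76) and 0.07 ± 0.11 in CBE+GZ-667161 against PBS (-0.18 to 0.31, adjusted p = 0.89).

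Atg5 and Atg7 belong to the system that attaches ATG8 proteins to lipid. Atg7 encodes the activating enzyme of that system, and the product of Atg5, joined to ATG12, helps the final transfer. Atg5 (chromosome 10, 44268358 to 44364291, plus strand) had 27.0, 31.0, 36.6 and 26.3 CPM in the CBE+GZ-667161 samples. It had 35.7 and 33.8 CPM in the day 40 CBE samples and 22.1 and 24.4 CPM in the day 34 CBE samples, against 25.4, 28.5, 26.8 and 25.5 CPM in the PBS samples. The 2 day 40 CBE samples lay above every PBS sample and the 2 day 34 CBE samples below every one. The ages did not overlap for 47.8% of all genes tested, a share that does not ask where the PBS samples lie. How often genes split around PBS in this way was not counted. The difference was 0.15 ± 0.17 in CBE against PBS (-0.22 to 0.51, edgeR adjusted p = 0.65) and 0.20 ± 0.17 in CBE+GZ-667161 against PBS (-0.16 to 0.55, adjusted p = 0.73). Restricting CBE to day 40 gave 0.38 against PBS (adjusted p = 0.17), and restricting it to day 34 gave -0.17 (adjusted p = 0.71). Atg5 had the lowest counts of the 10, 41 to 175 per sample, so its relative counting error was the largest. Atg7 (chromosome 6, 114643097 to 114860614, plus strand) had 61.8, 52.4, 61.1 and 52.1 CPM in the CBE+GZ-667161 samples. It had 77.4 and 61.6 CPM in the day 40 CBE samples and 63.6 and 55.0 CPM in the day 34 CBE samples, against 55.6, 58.1, 59.9 and 54.3 CPM in the PBS samples. CBE replicate 4 was again the highest and the groups overlapped. The difference was 0.18 ± 0.13 in CBE against PBS (-0.09 to 0.45, edgeR adjusted p = 0.40) and 0.00 ± 0.13 in CBE+GZ-667161 against PBS (-0.26 to 0.27, adjusted p = 1).

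**Figure D3:**
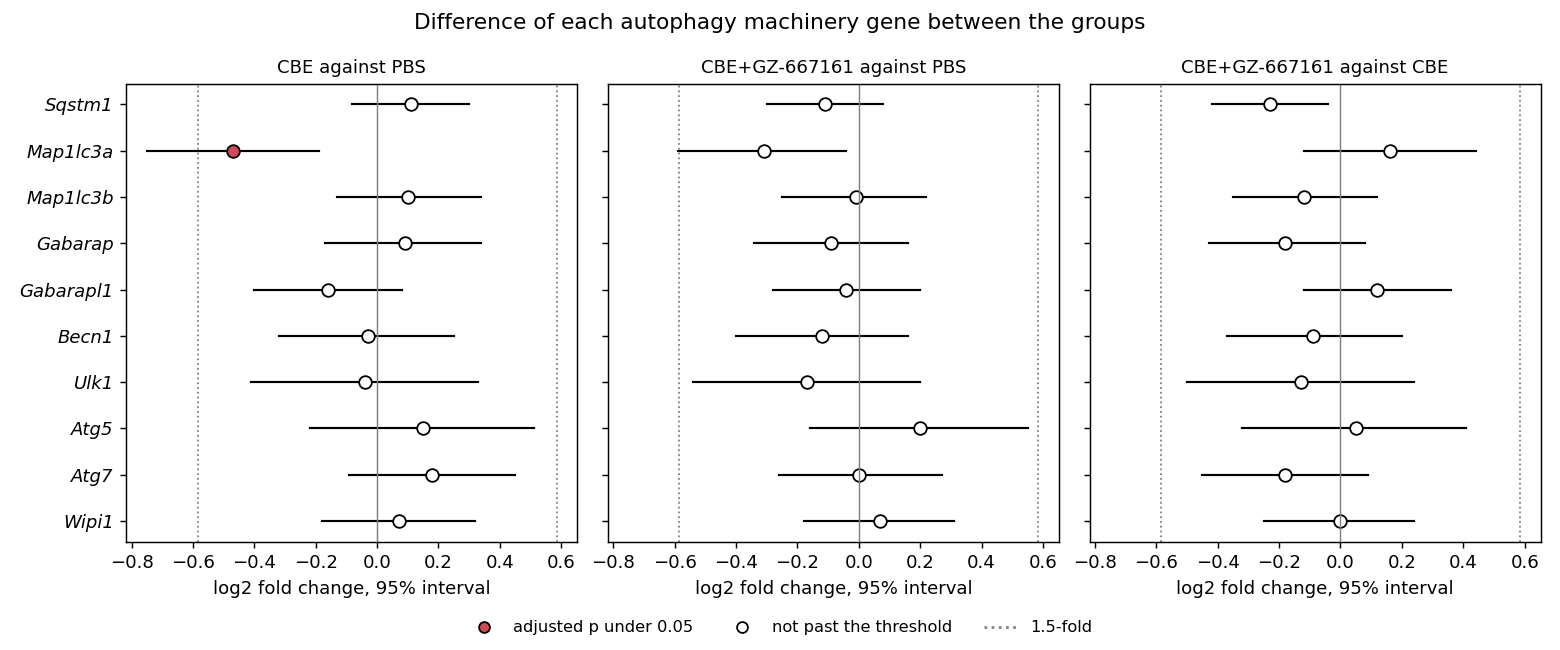
Log2 fold change (x axis) of each of the 10 genes with its 95% interval in CBE against PBS (left), CBE+GZ-667161 against PBS (middle) and CBE+GZ-667161 against CBE (right); dotted lines stand at 1.5-fold. Map1lc3a in CBE against PBS, at -0.47, is the 1 filled point, and the interval of Sqstm1 in CBE+GZ-667161 against CBE, -0.42 to -0.04, lies on one side of 0 without passing the adjusted threshold.

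TFEB, a transcription factor that switches on lysosomal and autophagy genes, binds the letters CACGTG in their promoters. Windows of 300 bases around the transcription start (250 before and 50 after) were taken from RefSeq on GRCm38.p6 and matched for 8 of the 10 genes. CACGTG was in the windows of 2 of these 8 genes (25%). It was in those of 13 of 74 genes of a wider autophagy set that includes the 8 (17.6%), and of 8.09% of all 27025 genes with a window. These shares were not matched for base content. The motif reads the same on both strands. The matches are shown with 12 bases on either side and the motif in capitals, because they are where the letters CACGTG occur in these windows. The first lies at chr6:114670952-114670981 and the second at chr10:44268313-44268342, both on the plus strand of GRCm38.p6.
Atg7: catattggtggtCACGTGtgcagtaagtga
Atg5: cggagcgcttgcCACGTGgtcttggtgacg
The RefSeq window of Atg7 lies inside the longer GENCODE gene, so it marks an inner start. A match describes the letters and does not show binding by TFEB or any other factor. Neither gene passed the test in any comparison, and Tfeb itself had 7.70 ± 1.10 CPM in CBE+GZ-667161, 8.67 ± 1.88 CPM in CBE and 7.43 ± 1.76 CPM in PBS (SD, n = 4 each), with a log2 fold change of 0.24 ± 0.27 in CBE against PBS (edgeR adjusted p = 0.62). Its relative Tfe3 had 0.26 ± 0.14 (adjusted p = 0.26), and Nfe2l2, the gene of the factor NRF2 that acts on Sqstm1, had 0.84 ± 0.32 (adjusted p = 0.11).

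The 10 genes were set beside 8 lists of 88 autophagy genes by role, of which they are part; 87 were in the table and 82 were tested. Between CBE and PBS 2 of the 82 were higher and 2 lower, beside 6.95% higher and 4.04% lower over all genes tested, and the median log2 fold change was 0.01, against -0.01 over all genes. The genes called were Vamp8 and Vps11 in the list of fusion with lysosomes, Map1lc3a in the ATG8 family and Atg4d among the conjugation enzymes. In the lists of the initiation complex (5 genes tested), the class III PI3-kinase complex (7), PI3P binding and membrane supply (10), cargo receptors (14) and upstream regulators (19), edgeR called 0 genes, with 0, 1, 1, 0 and 3 at an unadjusted p under 0.05 (24.8% of all genes), and DESeq2 called 0 as well. Between CBE+GZ-667161 and PBS 1 of the 82 was called, Vamp8, higher in CBE+GZ-667161 (beside 3.11% higher over all genes). Between CBE+GZ-667161 and CBE edgeR and DESeq2 called 0 of the 82, beside 1.28% of all genes in edgeR, with 14 at an unadjusted p under 0.05 (16.5% of all genes).

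Vamp8 encodes a SNARE protein of endosomes and lysosomes that takes part in fusing autophagosomes with lysosomes (chromosome 6, 72385223 to 72390703, minus strand). It had 30.0, 44.8, 45.0 and 52.6 CPM in the CBE+GZ-667161 samples. It had 50.4 and 55.3 CPM in the day 40 CBE samples and 64.1 and 75.5 CPM in the day 34 CBE samples, against 22.5, 28.3, 25.1 and 23.4 CPM in the PBS samples. The PBS samples lay below all samples of both other groups, which overlapped each other. Vamp8 was 2.45 times as abundant in CBE as in PBS (log2 fold change 1.30 ± 0.18, edgeR adjusted p = 0.00011) and 1.72 times as abundant in CBE+GZ-667161 as in PBS (0.79 ± 0.18, adjusted p = 0.016). Relative to CBE it was at -0.51 ± 0.17 in CBE+GZ-667161 (adjusted p = 0.15). The call in CBE+GZ-667161 against PBS was lost without PBS replicate 2 or 5 (adjusted p = 0.053 each) and without CBE+GZ-667161 replicate 3 or 5 (adjusted p = 0.054 and 0.067). Of the 8 microglial markers 6 were called higher in CBE than in PBS (median 1.17) and 6 in CBE+GZ-667161 than in PBS (median 0.84). Of the 7 astrocyte markers 4 and 1 were called higher in these comparisons (medians 0.58 and 0.22). The part of either cell type in the rise of Vamp8 was not tested.

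Atg4d encodes a cysteine protease that trims ATG8 proteins and frees them from lipid (chromosome 9, 21265293 to 21277772, plus strand). It had 32.7, 27.9, 38.3 and 44.1 CPM in the CBE+GZ-667161 samples. It had 25.9 and 28.1 CPM in the day 40 CBE samples and 27.5 and 24.4 CPM in the day 34 CBE samples, against 42.1, 45.1, 49.4 and 36.5 CPM in the PBS samples. The CBE samples lay below all PBS samples, and the CBE+GZ-667161 samples overlapped both. Atg4d fell in CBE relative to PBS by 0.70 ± 0.16 on the log2 scale (edgeR adjusted p = 0.0094), and this call was lost with the day 34 CBE samples alone (-0.71, adjusted p = 0.081). In CBE+GZ-667161 the difference was -0.28 ± 0.15 against PBS (adjusted p = 0.48) and 0.42 ± 0.16 against CBE (adjusted p = 0.21). Kri1 on the opposite strand covers its 3' end.

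Vps11, a core subunit of the HOPS complex that tethers membranes to lysosomes (chromosome 9, 44347749 to 44361670, minus strand), had 65.7, 71.7, 65.9 and 80.6 CPM in the CBE+GZ-667161 samples. It had 123 and 109.6 CPM in the day 40 CBE samples and 81.4 and 66.7 CPM in the day 34 CBE samples, against 58.2, 70.8, 69.1 and 62.1 CPM in the PBS samples. The day 40 CBE samples were the highest of all, and the day 34 CBE samples overlapped PBS. Vps11 rose in CBE relative to PBS by 0.56 ± 0.16 (edgeR adjusted p = 0.036). Restricting CBE to day 40 gave 0.83 (adjusted p = 0.0013), and restricting it to day 34 gave 0.20 (adjusted p = 0.55). The call was also lost without PBS replicate 2, 4 or 5 (adjusted p = 0.085, 0.064 and 0.081) and without CBE replicate 4 or 6 (adjusted p = 0.14 and 0.11). It was lost with Xist as a covariate (adjusted p = 0.077), under the replicate block (0.48, adjusted p = 0.14) and in a fit of the CBE and PBS samples alone (adjusted p = 0.054). In CBE+GZ-667161 the difference was 0.12 ± 0.16 against PBS (adjusted p = 0.86) and -0.44 ± 0.16 against CBE (adjusted p = 0.19). Against the day 40 CBE samples alone Vps11 was called lower in CBE+GZ-667161 (-0.71 ± 0.14, adjusted p = 0.012). Of the genes that stand for the other lists, Atg13 (a partner of ULK1) had -0.07 ± 0.15 in CBE against PBS, Atg9a and Vmp1 (membrane proteins of early autophagosomes) -0.07 ± 0.13 and -0.13 ± 0.13, Rtn3 (a receptor for the endoplasmic reticulum) -0.19 ± 0.10 and Tsc2 (a brake on mTORC1) 0.00 ± 0.12, and edgeR called none of these 5. Rubcn, which encodes an inhibitor of autophagy, had -0.38 ± 0.14 (edgeR adjusted p = 0.10). Rragc, which encodes a Rag GTPase that recruits mTORC1 to lysosomes, had 0.38 ± 0.14 (adjusted p = 0.094). CBE and PBS did not overlap for Rragc, as for 15.6% of all genes. Its lowest CBE sample was at 121.6 CPM and its highest PBS sample at 120.6 CPM. Rubcn and Rragc were both called with the day 40 CBE samples alone, at -0.62 (adjusted p = 0.017) and 0.60 (adjusted p = 0.0071). Rragc was also called without CBE replicate 3 (0.48, adjusted p = 0.031).

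**Figure D4:**
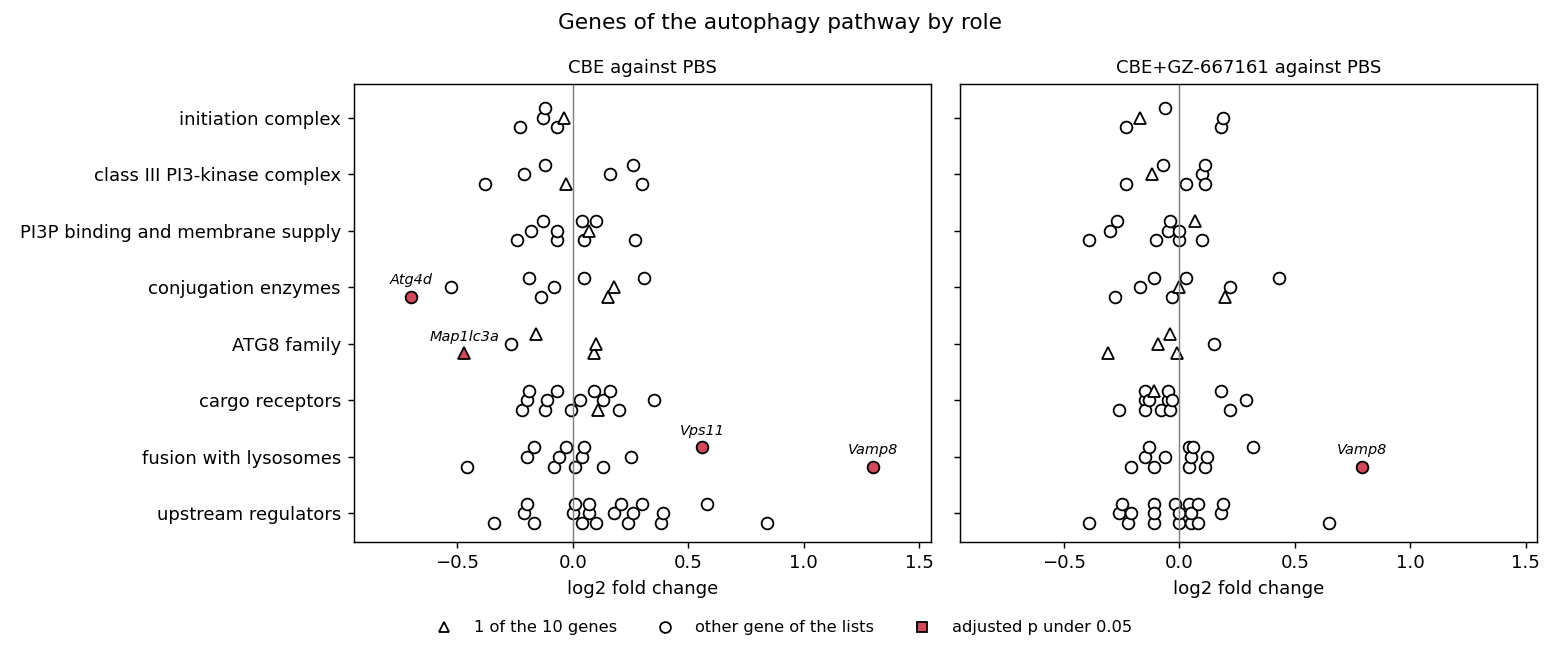
Log2 fold change (x axis) of the 82 tested autophagy genes by role (rows), in CBE against PBS on the left and CBE+GZ-667161 against PBS on the right; triangles are the 10 genes, and filled points have an adjusted p under 0.05. Most points lie near 0 in every row, and the named exceptions are Vamp8, Vps11, Atg4d and Map1lc3a on the left and Vamp8 on the right.

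Within the CBE group the ages were compared in a fit with 4 groups, 2 samples at each age. Of the 10 genes edgeR called 0 between day 40 and day 34, beside 0.613% of 13372 genes, with 2 at an unadjusted p under 0.05 (15.1% of all genes) and 0 called by DESeq2. Those 2 were Atg5, with 34.7 ± 1.37 CPM at day 40 and 23.3 ± 1.66 CPM at day 34 (SD, n = 2 each; 0.55 ± 0.21, edgeR adjusted p = 0.23), and Gabarapl1, with 1213 ± 112 CPM at day 40 and 962 ± 60.3 CPM at day 34 (0.31 ± 0.13, adjusted p = 0.29). For Ulk1 the difference was 0.45 ± 0.23 (adjusted p = 0.36), and for Map1lc3a it was -0.01 ± 0.19 (-0.41 to 0.39, adjusted p = 0.99). The samples of the ages did not overlap for 8 of the 10 genes, beside 47.8% of all genes tested. Precision was lower here, and the interval lay within 1.5-fold for 6 of the 10 genes (17.6% of all genes). Age and treatment both differ between the day 34 CBE samples and the day 40 samples of the other groups, so the day 40 CBE samples give the comparison at 1 age, in which edgeR called 0 of the 10 genes against PBS and 0 against CBE+GZ-667161. In that comparison 10 of the wider lists' genes, of 87 in the table, were called between CBE and PBS, 5 higher and 5 lower. Over all genes 13.2% were called, so the count was near that of all genes. Vamp8, Vps11, Rragc, Tollip and Wdr45b, the gene of a WIPI family protein, were higher in day 40 CBE. Atg4c, Atg4d, Gabarapl2, Rubcn and Stbd1 were lower. Stbd1 had only 79 counts over all samples, too few to be tested in the fit of the 3 groups, and its value was imprecise (-2.75 ± 0.77). Between CBE+GZ-667161 and day 40 CBE the count of the wider lists' genes called was 6, beside 5.09% of all genes. Atg4c, which encodes a protease related to that of Atg4d, was higher in CBE+GZ-667161 (1.08 ± 0.20, adjusted p = 0.0097), as were Gabarapl2 of the ATG8 family (0.74 ± 0.17, adjusted p = 0.024), Rubcn (0.65 ± 0.15, adjusted p = 0.031) and Ulk2, a relative of Ulk1 (0.68 ± 0.18, adjusted p = 0.048). Vps11 and Tollip were lower (-0.71 and -0.57, adjusted p = 0.012 each). These genes were named after their values were seen, both comparisons share the 2 day 40 CBE samples, and with all 4 CBE samples edgeR called none of the 6 between CBE+GZ-667161 and CBE. Tollip, an adaptor that can act as a receptor for ubiquitinated cargo, was the 1 gene of the wider lists called between the ages (chosen after its value was seen). It had 240.2 and 212 CPM at day 40 and 139 and 147 CPM at day 34, a log2 fold change of 0.64 ± 0.13 (edgeR adjusted p = 0.041). The call was lost without CBE replicate 2, 3, 4 or 6, at an adjusted p of 0.13, 0.25, 0.26 and 0.085.

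The 10 genes differed in their spread between samples of a group. That spread includes counting error, which was largest for Atg5, and in CBE it includes any difference between day 34 and day 40. These parts were not separated. The pooled SD within groups, on the log2 scale, was 0.07 for Sqstm1, 0.11 for Wipi1, 0.14 for Map1lc3b, 0.15 for Gabarapl1 and Atg7, 0.17 for Gabarap, 0.18 for Becn1, 0.19 for Map1lc3a, 0.23 for Atg5 and 0.27 for Ulk1. Without CBE replicate 4 the value for Ulk1 was 0.16, so its place as the gene of largest SD among the 10 rests on that sample. Over all 12 samples the highest level was 1.29 times the lowest for Wipi1, 1.34 times for Sqstm1 and 1.89 times for Map1lc3a, which had the widest range. For Ulk1 the ratio was 1.76.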

How the data were processed

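Bulk MARS-seq was run on 12 whole-brain samples. HISAT 0.1.6, cutadapt, HTSeq, DESeq2 and build mm10 are named, without role or order, per the submitters' processing notes. The sources used here do not state the annotation, filters, strand use, use of molecular identifiers or treatment of reads with several matches. The authors deposited raw counts per gene symbol, whole numbers with no normalization. The authors' deposited table of comparisons holds log2 fold changes and p-values per gene, and only its values for the 10 genes were used.

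Of 16505 entries, 23 carried a date in place of a symbol (0.266% to 0.347% of the counts of a sample) and entered neither library sizes nor tests. Of the rest, 5 genes had no count. After filterByExpr (minimum count 10, total 15) and TMM scaling, edgeR 4.0.16 (glmQLFit, glmQLFTest) fitted the 3 groups together, or 4 groups with CBE split by age. Benjamini-Hochberg adjustment ran over all genes tested, with a threshold of 0.05. Intervals of 95% come from the standard error and the t distribution of that test. Totals of 1753626 to 6499257 counts limit the precision of low genes most.

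Groups follow the treatment in the labels. Genes were named by a rule: all 10 genes, the wider lists' genes called against PBS or else the 2 of highest level per list, 3 regulators, and the 3 genes most like any of the 10 called. The 10 genes, the lists and the rule were chosen with earlier results of these data known. Alternatives were DESeq2 1.42.0, its size factors in edgeR, no filter, fits of the compared groups alone, Xist as a covariate, a replicate block, CBE samples of 1 age, and each sample left out. The steps were tested on simulated data. Log2 levels used a prior count of 2. Positions are from GENCODE for mm10 and promoter windows from RefSeq on GRCm38.p6, where 8 of the 10 genes matched. R 4.3.3, Python 3.11.15 and matplotlib 3.10.9 were used.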

Additional observations from a re-analysis of the deposited data

Results flagged for a closer look

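In CBE replicate 4, a day 40 sample, Ulk1 stood at 109.6 CPM, whereas the other 3 CBE samples lay between 62.2 and 66.2 CPM. Its gap to the nearest of them was 0.915 of the range of the group, above the 95% critical value of Dixon's test. Of 72 groups of 4 samples examined (a gene in a group), this was the 1 with such a sample. Chance alone gives such a sample in about 1 of 20 groups, so 1 in 72 is not more than chance gives. The same sample was the highest of all 12 for Map1lc3b (429.6 CPM), Atg7 (77.4 CPM) and Sqstm1 (505.3 CPM). For Sqstm1 the next was CBE replicate 6, at 504.3 CPM. It was also the highest for Vps11 (122.6 CPM), Rragc (185.2 CPM), Tollip (240.2 CPM) and Tfe3 (67.9 CPM). For the other genes examined another sample was the highest. The share of all genes tested with this sample as the highest was not computed. CBE replicate 4 is 1 of the 2 day 40 CBE samples, so values for that age alone rest in part on it.

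Tollip was higher in day 40 than in day 34 CBE samples, with a log2 fold change of 0.64 ± 0.13 (edgeR adjusted p = 0.041), in 2 of 2 samples against 2. Set against PBS, its difference was 0.41 with the day 40 CBE samples alone (adjusted p = 0.022) and -0.22 with the day 34 CBE samples alone (adjusted p = 0.33).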

How the results depend on the processing

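For CBE against PBS the count of the 10 genes called was 0 under the replicate block, without the 2 day 34 or without the 2 day 40 CBE samples (the second chosen after seeing the data), and 0 to 1 with each sample left out. The count of wider autophagy genes called was 2 under the replicate block, 10 without day 34, 1 without day 40 and 2 to 4 with each sample left out, with 2 without PBS replicate 2 or 4 or CBE replicate 4 or 6. Under the block Map1lc3a was at -0.53 (edgeR adjusted p = 0.058). Same-numbered samples had residual correlations of -0.08 to 0.24 over 10 pairs, and 3 of 11 samples correlated best with their own number, so the numbers were not taken to pair samples. The block lowered calls over all genes to 947, against 1387 without it. In CBE+GZ-667161 against PBS the wider count was 0 to 1 with each sample left out. In CBE+GZ-667161 against CBE it was 6 without day 34. Between the ages it was 0 in the fit of the CBE samples alone and 0 with each sample left out, where the lone sample left in its arm is assumed to vary like the others. Differences near 0 changed sign, none of them called. In CBE against PBS, Tsc2 moved to 0 (other size factors, DESeq2, the 2 groups alone), 0.03 (Xist covariate), 0.02 (replicate block) and 0.05 (without day 34). Becn1 moved to 0.01 (Xist covariate), 0.02 (replicate block) and 0.11 (without day 40), and Atg5 to -0.02 (replicate block) and -0.17 (without day 40). Without day 34, Ulk1 and Atg13 were at 0.16, Wipi1 at -0.01, Atg9a at 0.13 and Vmp1 at 0.04. Without day 40, Map1lc3b was at 0 and Tollip at -0.22. With each sample left out, Becn1 ran from -0.12 to 0.04, Ulk1 from -0.28 to 0.09, Atg13 from -0.17 to 0.07, Atg9a from -0.15 to 0.03, Tsc2 from -0.08 to 0.06 and Tollip from -0.01 to 0.24. In CBE+GZ-667161 against PBS, Atg7 was at -0.01 (other size factors, no filter, replicate block), at 0 (DESeq2) and from -0.04 to 0.05 with each sample left out, Gabarapl1 at 0.01 (Xist covariate) and from -0.11 to 0, and Map1lc3b from -0.05 to 0.05. In CBE+GZ-667161 against CBE, Wipi1 was at 0.01 with no filter, at 0.08 without day 34 and from -0.05 to 0.04 with each sample left out. Without day 34, Gabarapl1 was at -0.03, Becn1 at 0.04 and Atg5 at -0.19, and without day 40 Ulk1 was at 0.12. Ulk1 ran from -0.21 to 0.11 and Atg5 from -0.07 to 0.16 with each sample left out. Between the ages, Map1lc3a was at 0 (other size factors, DESeq2, the CBE samples alone), 0.02 (no filter) and from -0.05 to 0.08. The cause of these moves was not tested. Depth limits Atg5 most, with 41 to 175 counts per sample.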
